A study of Mus musculus with 182 samples.

Results

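Wild-type mouse embryos at the 4-cell stage (4C) were compared with those at the 2-cell stage (2C), in single blastomeres, the cells of a cleaving embryo. The members were all wild-type cells with these stage labels, 10 cells of 4C and 6 cells of 2C, out of 182 cells of the series, 113 of them wild type. All 16 cells carry the wild-type Xist label, came from natural matings, and were taken without culture of the embryos. They are hybrids of the strains C57BL/6J (B6) and Cast/EiJ (Cast), and each cross is named with the mother first, so that BC embryos had a B6 mother and CB embryos a Cast mother. The 4C cells were 5 BC females, 2 BC males and 3 CB females, and no 4C cell was a CB male. The 2C cells were 2 BC females, 1 BC male, 1 CB female and 2 CB males. Polyadenylated RNA of each cell was copied from its 3′ end, amplified and sequenced. The labels do not say which cells shared an embryo, so cells were not treated as replicates: the counts of cells of the same stage, cross and sex were summed, which gave 3 sums at 4C and 4 sums at 2C. The sums of all wild-type stages were fitted together, so that the p-values for levels rest on a spread between sums estimated over every stage. That spread mixes cross, sex, embryo and technical variation. For the single 2C female of the CB cross the title gives CB while the strain label gives BC, and the title was followed.

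An early mouse embryo starts with RNA and protein stored in the oocyte. Much of that maternal RNA is degraded around fertilisation and the first cleavage, while the embryo's own genome is switched on in a minor wave in the zygote and a major wave at the 2-cell stage. Some genes of the 2-cell wave, such as Zscan4 and Zfp352, are transcribed only briefly, whereas genes for making ribosomes, proteins and RNA stay on as cleavage goes on. RNA read from the paternal allele cannot come from the oocyte, so in a hybrid the paternal share of a gene's reads separates newly made from stored RNA.

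Total counts were 6.4M to 40.05M reads (M for mega) per cell at 4C (median 9.79M) and 4.56M to 6.70M at 2C (median 5.65M). Each cell resembled cells of its own stage more than those of the other: the mean correlation of log2 expression across genes was 0.848 to 0.894 with its own stage and 0.731 to 0.78 with the other. No 2 cells of a group agreed within counting noise. After thinning every cell to 4M reads, a median of 11167 genes had a read at 4C (10279 to 11905) and 11884 at 2C (11376 to 12326), and without thinning the medians were 12032 at 4C and 12065 at 2C. A further difference lay in how much of a transcript was read. The length of transcript implied by the authors' count and length-normalized tables, called covered length here, had a median of 2.30 kilobases per gene at 4C (1.53 to 2.56 over cells) and 1.39 kilobases at 2C (1.35 to 1.44). The 4 deepest 4C cells, named 50A, 50C, 51A and 51C in their titles, stood apart with 1.53 to 1.78 kilobases, against 2.30 to 2.56 in the other 6 cells. These 4 cells include both males. Paternal X-linked shares went with the sex labels: they were 0.014 to 0.016 in 4C males and 0.005 to 0.014 in 2C males, against 0.373 to 0.524 in 4C females and 0.353 to 0.466 in 2C females.

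Of 16622 genes tested with edgeR (quasi-likelihood test, Benjamini-Hochberg adjusted p under 0.05), 1098 were higher (6.61%) and 486 lower (2.92%) at 4C than at 2C, 9.53% in either direction. Values are CPM, reads of a gene per 1M reads of the cell or sum, which are relative to all reads of a cell and not molecules per cell. The 3 sums of 4C lay all above the 4 sums of 2C for 12.4% of genes, and all below for 15.6%. The balance of the calls moved with the scaling: 750 genes were higher and 635 lower with library size alone (median log2 change of all genes -0.40), and 820 and 578 with DESeq2 size factors (median -0.28), against a median of -0.05 with the trimmed mean of M-values used here. On the authors' length-normalized signal, limma called 612 genes higher and 2977 lower, with a median of -0.65. That signal summed to 0.48M to 0.61M per cell at 4C and 0.94M to 1.08M at 2C. It was not rescaled before the test, so all calls on this signal carry the difference in totals. Without the 4 deep 4C cells, 828 genes were higher and 131 lower. That fit keeps 2 sums at 4C, both female, because the BC male sum is made only of deep cells. The BC female sum of 4C also rests largely on deep cells, because counts were summed without weighting. In it 50A and 51A had 40.05M and 22.75M reads, against 7.09M to 10.67M in its other cells. Leaving out each sum in turn gave 658 to 974 higher and 148 to 356 lower genes, the fewest of both without the BC females of 4C. Leaving out a 4C sum gave 148 to 186 lower genes. The part of the deep cells and that of fewer sums were therefore not told apart in any call lost without these cells. Of 93 named calls followed with each sum left out, Lsm14b and Zscan4c were lost whichever of the 7 sums was missing. Brwd1, Bcl2l10, Cdk4, Cldn4, Gab1, Myl12b, Pdha1, Prcc, Slc2a1 and Zfp352 lost theirs in at least 4 of the 7 fits. Cldn6, LOC106029237, Gadd45b, Hspa1a, Krt8, Gsk3a, Hira, Dnmt3b, Aurka and Mcm5 lost theirs in 1 to 3. Further called members named below for their lists were not followed singly. Without the CB female sum of 2C, lower calls went from 10 to 2 among transient 2-cell genes and from 2 to 0 among cytosolic ribosomal protein genes. They went from 9 to 6 in oxidative phosphorylation and stayed at 1 among proteasome genes. Changes of gene groups below are to be read against the medians of all genes given above for each scaling.

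**Figure D1:**
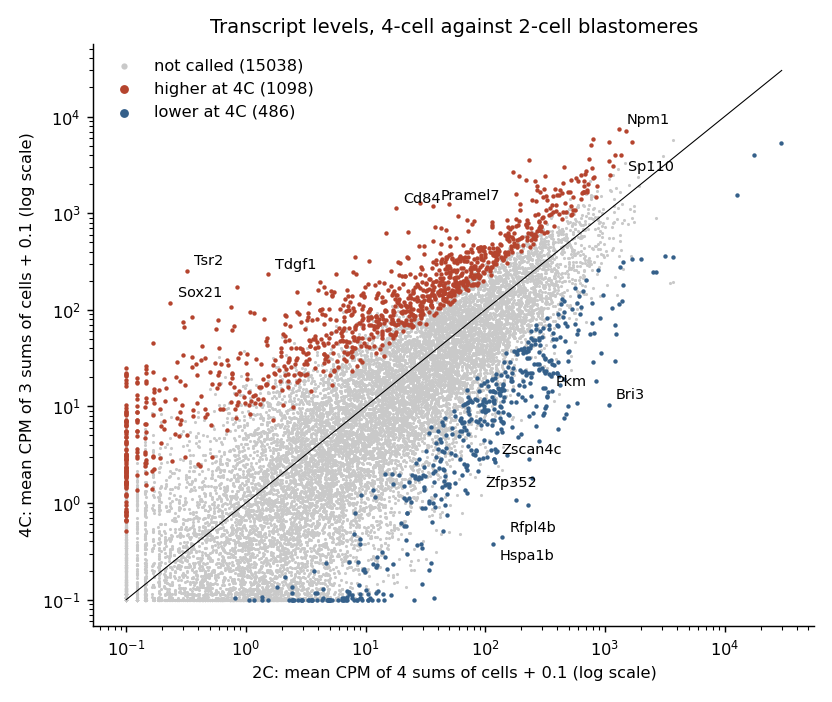
Mean CPM plus 0.1 of each gene over the 3 sums of 4C (vertical axis) and the 4 sums of 2C (horizontal axis), both on log scales, with 1 point per gene. Red points are the 1098 genes called higher at 4C and blue points the 486 called lower, and the line marks equal levels.

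Oocyte levels, which were not part of the comparison, placed these changes. Genes with at least 50 CPM in the oocytes of this series are called oocyte-stored here, and genes with at most 0.5 CPM in both oocyte sums are called not found in oocytes. Among 2662 oocyte-stored genes, 232 were higher (8.72%) and 156 lower (5.86%) at 4C. Among 5243 genes not found in oocytes, 162 were higher (3.09%) and 48 lower (0.916%), and among the 8717 genes between, 704 were higher (8.08%) and 282 lower (3.24%). The reads did not shift from the first class to the second: oocyte-stored genes took a median of 41.79% of reads at 4C (40.16 to 47.4) and 40% at 2C (38.59 to 49.65). Genes not found in oocytes took 1.945 to 2.519% of reads at 4C and 2.888 to 3.637% at 2C, ranges that do not overlap.

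The transcripts with the largest gains were near or at 0 at 2C. Tsr2 (X chromosome, 151087094 to 151096543 on GRCm38), a factor of ribosomal RNA processing, had 134, 261 and 405 CPM in the lowest, median and highest 4C cell, against 0, 0.188 and 0.657 CPM in 2C cells. Every 4C cell lay above every 2C cell, and the log2 fold change was 10.40 ± 0.95 (standard error; edgeR adjusted p 3.94e-07). Sox21 (chromosome 14, 118233233 to 118237030), a transcription factor of the Sox family, had 0.141, 91.1 and 281 CPM at 4C and 0, 0.0999 and 0.352 CPM at 2C. A single 4C cell, a BC female, lay within the 2C range, and the other 4C cells lay above it (10.20 ± 1.19, adjusted p 7.40e-06). Tdgf1 (chromosome 9, 110939608 to 110946158), the co-receptor Cripto of Nodal signalling, had 30.9, 116 and 442 CPM at 4C and 0.507, 1.19 and 3.73 CPM at 2C, with no overlap (7.62 ± 1.43, adjusted p 0.00111). Cd84, a cell-surface receptor of the SLAM family, had 313, 1055 and 1990.0 CPM at 4C and 12.1, 16.0 and 32.6 CPM at 2C (6.32 ± 0.81, adjusted p 1.89e-05), and here too the stages did not overlap.

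Several other genes with large gains serve basic gene expression and metabolism. Taf7, a subunit of the general transcription factor TFIID, had a median of 185 CPM over 4C cells and 0.443 CPM over 2C cells. Bud13, a splicing factor, had medians of 84.3 and 0.729 CPM at 4C and 2C, and Lars, the cytosolic leucyl-tRNA synthetase, 68.6 and 0.376 CPM. Mrps31, a protein of the mitochondrial ribosome, and Prdx3, a mitochondrial peroxiredoxin, had medians of 80.9 and 78 CPM at 4C, against 0.0881 and 0.945 CPM at 2C. Igbp1, a partner of PP2A phosphatases, Prmt9, an arginine methyltransferase, Bccip, a partner of BRCA2, and the actin-binding profilin Pfn1 had 54.4, 46.3, 67.2 and 59.1 CPM at 4C, each against under 0.2 CPM at 2C. The ubiquitin ligase Trim7 had 76.1 CPM at 4C and 0.329 CPM at 2C. All 4C cells exceeded all 2C cells for each of these genes, with log2 fold changes of 6.32 (Lars) to 8.82 (Prmt9). Prcc was higher at 4C too (84 and 0.0999 CPM, adjusted p 0.0446), but with overlap, and its call was lost with covered length as an offset (adjusted p 0.0524).

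The largest losses included heat shock genes. Hspa1b, an inducible Hsp70 chaperone (chromosome 17, 34956429 to 34959238), had 0, 0 and 1.83 CPM in the lowest, median and highest 4C cell and 11.6, 41.5 and 451 CPM at 2C (-8.37 ± 1.83, adjusted p 0.00426). Its neighbour and near-identical copy Hspa1a had 0, 1.82 and 4.78 CPM at 4C and 29.5, 70.1 and 124 CPM at 2C (-5.55 ± 1.49, adjusted p 0.0181). The stages did not overlap for either, though reads may have been split between the copies, and the Hspa1a call was lost without the 4 deep 4C cells.

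Bri3 (chromosome 5, 144244437 to 144264573), a membrane protein of lysosomes, had 1.82, 9.26 and 30.1 CPM at 4C and 399.7, 1074 and 1696 CPM at 2C (-6.35 ± 1.09, adjusted p 4.86e-04). Taf10, another TFIID subunit, had 0.228, 5.23 and 23.6 CPM at 4C and 315, 458 and 579 CPM at 2C (-5.59 ± 1.12, adjusted p 0.00194). In both genes the stages were far apart, so that 2 subunits of TFIID moved in opposite directions. Msrb1, a methionine sulfoxide reductase, Rbm38, an RNA-binding protein, and the kinase Gsk3a had medians of 3.78, 1.43 and 2.43 CPM at 4C, against 238, 129.8 and 133 CPM at 2C. The centrosomal protein Sac3d1, the zinc finger protein Zfp707, the ubiquitin ligase Dtx2, the adhesion molecule Nectin2 and Znhit2 were lower without overlap as well, with log2 fold changes of -5.22 (Zfp707) to -7.16 (Znhit2). LOC106029237, a gene with no further name in the files, was lower by 6.80 on the log2 scale. Bcl2l10, a member of the Bcl2 family and one of the oocyte's own transcripts, had medians of 4.96 CPM at 4C and 286 CPM at 2C, and its oocyte sums averaged 11450 CPM. The calls of Bcl2l10 (adjusted p 0.0403), Gsk3a and LOC106029237 were lost without the deep 4C cells.

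Many proteasome and translation initiation genes were higher at 4C. Of 31 proteasome subunit genes, 16 rose and 1 fell (51.6% and 3.23%, against 6.61% and 2.92% of all genes), and the median log2 change was 1.41. Psma7, a subunit of the core particle, had 32.4, 130.2 and 296 CPM at 4C and 0.352, 5.09 and 12.8 CPM at 2C, without overlap (5.29 ± 0.62, adjusted p 7.40e-06). Psmb2 (4.50 ± 0.59) and Psma5 (3.38 ± 0.49) of the core and the ATPase Psmc5 of the cap (3.33 ± 0.50) rose as well. The exception was Psmb5, the core's chymotrypsin-like protease, with 15.6, 34.7 and 171 CPM at 4C and 229, 402 and 524 CPM at 2C (-2.19 ± 0.52, adjusted p 0.00775), again without overlap. Without the deep 4C cells 14 proteasome genes rose and 0 fell.

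Translation initiation followed, with 15 of 31 genes rising, 2 falling and a median of 1.23. Eif4e, which binds the cap of mRNA, had 3156, 4047 and 5448 CPM at 4C and 1044, 1200.0 and 1517 CPM at 2C (2.09 ± 0.38, adjusted p 8.58e-04). Eif3e (3.63 ± 0.44) and Eif3i (2.42 ± 0.42) of the eIF3 complex and the helicase Eif4a2 (2.37 ± 0.38) rose too. The fallers were Eif1, which takes part in start codon choice, with 85.3, 349 and 706 CPM at 4C and 2646, 3286 and 3625 CPM at 2C (-2.78 ± 0.62, adjusted p 0.00482), and Eif6, which keeps ribosomal subunits apart (-1.99 ± 0.53, adjusted p 0.0175). For both genes every 4C cell lay below every 2C cell. With the deep 4C cells left out, 14 of the group rose and 1 fell.

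Heat shock proteins and chaperones moved both ways: 10 of 20 rose and 3 fell, with a median of 1.48. Those that rose include Hsp90ab1, a constitutive chaperone, with 1511, 4224 and 9300.0 CPM at 4C and 488, 706 and 1256 CPM at 2C (3.07 ± 0.43, adjusted p 5.30e-05). Tcp1, a subunit of the cytosolic chaperonin, rose by 3.16 ± 0.46, as did Cct2, Cct5, Cct6a and Cct7 of the same complex, Hspa8, Hsp90aa1, Dnaja1 and the mitochondrial Hspd1. Other chaperones of these kinds, Hspa5, Hspa9, Hspe1, Hsph1, Cct3, Cct4 and Cct8, did not pass the test. The 3 that fell were Hspa1a, Hspa1b and Dnajb1, all known as stress-inducible; Dnajb1 had 34.4, 72.0 and 158 CPM at 4C and 102, 192 and 563 CPM at 2C, with overlap (-1.57 ± 0.48, adjusted p 0.0395). Without the deep 4C cells, 10 genes rose and 1 fell. On the authors' signal the medians of these groups were 0.35 (proteasome), 0.20 (translation initiation) and 0.39 (chaperones), against -0.65 over all genes. There limma called 7 proteasome genes higher and 5 lower, 8 and 8 of translation initiation, and 6 and 5 chaperones.

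**Figure D2:**
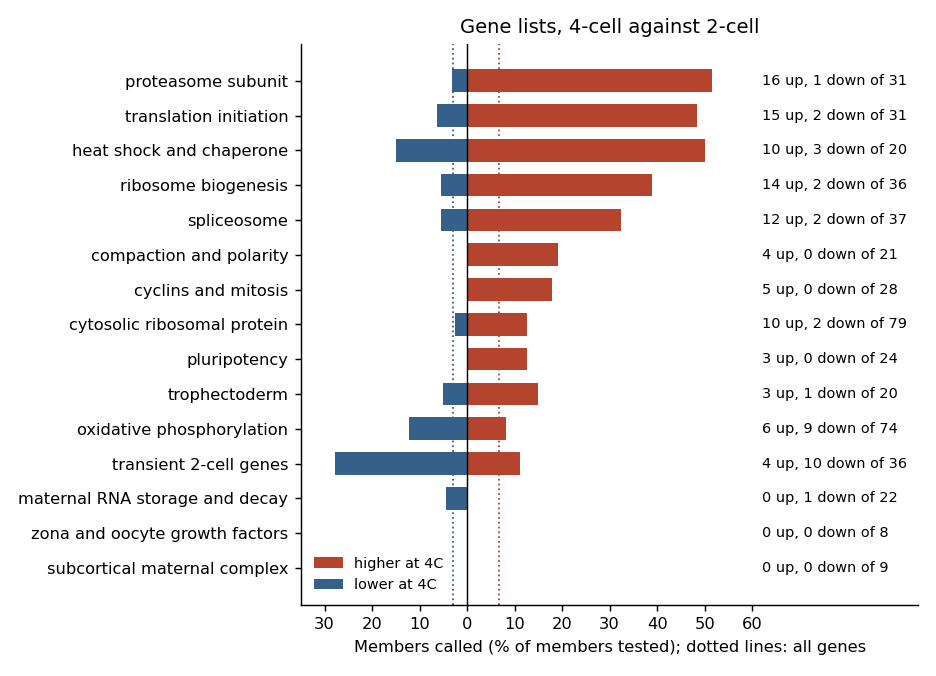
Percentage of tested members called higher (red, to the right) and lower (blue, to the left) at 4C than at 2C in 15 gene lists, with the counts beside each bar. Dotted lines mark the percentages over all genes, 6.61% higher and 2.92% lower, and the top 5 lists lie beyond the line for higher calls by the widest margin.

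Ribosome assembly and splicing were next. Of 36 ribosome biogenesis genes 14 rose and 2 fell, and the median was 1.29. Npm1, nucleophosmin of the nucleolus, had 5321, 6996 and 9167 CPM at 4C and 928, 1340.0 and 1662 CPM at 2C, without overlap (2.84 ± 0.32, adjusted p 7.14e-06). Dkc1, the pseudouridine synthase dyskerin, rose by 4.41 ± 0.56 and the nucleolar phosphoprotein Nolc1 by 2.56 ± 0.46, both without overlap between cells. Nucleolin (Ncl) rose by 2.37 ± 0.41 with overlap: it had 731, 1268 and 4794 CPM at 4C and 398, 555 and 848 CPM at 2C. Nhp2, a partner of dyskerin (-2.40 ± 0.61), and Rrp9, a protein of the U3 particle (-3.02 ± 0.71), fell, each with every 4C cell below every 2C cell. Without the deep 4C cells 9 rose and 1 fell. On the authors' signal the balance of calls turned, with 4 higher and 8 lower by limma, and the median of the list was -0.26, below 0 but above the -0.65 of all genes.

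In the spliceosome list 12 of 37 genes rose and 2 fell, with a median of 0.57. On the authors' signal 6 were higher and 9 lower by limma and the median was -0.71, which lies just below that of all genes, so the direction of this list turned with the table used. Eftud2, the GTPase of the U5 particle, had 39.1, 154 and 275 CPM at 4C and 0.657, 10.2 and 21.4 CPM at 2C (4.49 ± 0.56, adjusted p 1.40e-05). Snrpb2 of the U2 particle rose by 3.62 ± 0.49 and Hnrnpc by 2.42 ± 0.36, without overlap in either. Snrpc of the U1 particle (-3.39 ± 0.86) and the core protein Snrpb (-2.36 ± 0.71) fell.

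Cytosolic ribosomal protein genes did not move as a whole. Of 79, 10 rose and 2 fell, and the median was -0.16, against 0.48 with covered length as an offset, where 19 rose and 1 fell. Rpl3 had 1258, 2688 and 4396 CPM at 4C and 109, 209.9 and 355 CPM at 2C (3.99 ± 0.60, adjusted p 1.18e-04), and Rpl4, Rpl5, Rpl7, Rpl7a, Rpl14, Rps3, Rps3a1, Rps4x and Rpsa rose by 1.52 (Rps3a1) to 2.84 (Rpl7). Rps10 had 2.47, 11.9 and 94.8 CPM at 4C and 107, 242 and 437 CPM at 2C (-3.15 ± 0.94, adjusted p 0.033), and Rplp2 fell by 2.69 ± 0.79. Both downward calls were lost without the deep 4C cells and without the 2C cell of conflicting labels. The summed level of all 79 genes was 26190 to 86550 CPM per cell at 4C and 35970 to 85540 CPM at 2C, so that the stages overlapped throughout. Ribosomal protein genes have many processed pseudogenes, and how the authors' counting treated shared reads is not given in the sources used here.

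Oxidative phosphorylation genes were called in both directions on the counts. Of 74 tested, 6 rose and 9 fell (8.11% and 12.2%, against 6.61% and 2.92% of all genes). The share that rose was thus near that of all genes. The median was -0.62, against -0.15 with covered length as an offset. On the authors' signal limma called 0 higher and 23 lower, with a median of -1.0 against -0.65 over all genes. With females alone 0 rose and 5 fell. The 6 that rose were Ndufs1, Ndufv1 and Ndufa10 of complex I, Sdha of complex II, Uqcrc2 of complex III and Atp5a1 of the ATP synthase. Uqcrc2 had 86.4, 185 and 318 CPM at 4C and 5.70, 45.1 and 80.2 CPM at 2C, without overlap (2.20 ± 0.51, adjusted p 0.0068). The 9 that fell were Ndufa2, Ndufa6, Ndufb2, Ndufb6, Ndufb11 and Ndufab1 of complex I and Cox5b, Cox6a1 and Cox8a of complex IV. Cox8a had 1.01, 6.66 and 35.6 CPM at 4C and 211, 239.7 and 338 CPM at 2C (-4.39 ± 1.26, adjusted p 0.0276), again without overlap. Without the deep 4C cells 4 rose and 2 fell.

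Among 23 genes of glucose and pyruvate use 1 rose and 2 fell (4.35% and 8.70%, against 6.61% and 2.92% of all genes; median -0.69). Pyruvate kinase Pkm had 1.08, 12.7 and 35.6 CPM at 4C and 134, 360.1 and 516 CPM at 2C (-4.24 ± 0.69, adjusted p 3.08e-04), with every 4C cell below every 2C cell. Pdha1, which feeds pyruvate into the mitochondrial cycle, rose by 1.74 ± 0.53 (adjusted p 0.0361), and the glucose transporter Slc2a1 fell by 4.56 ± 1.48 (adjusted p 0.0495). The calls of Pdha1 and Slc2a1 were lost without the deep 4C cells.

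Most genes known for brief expression at the 2-cell stage lay lower at 4C. The log2 change was below 0 in 29 of 36 tested and above 0 in 7. By the test 10 fell and 4 rose (27.8% and 11.1%, against 2.92% and 6.61% of all genes). The median log2 change was -3.08, against -0.05 over all genes. It was -2.70 to -3.57 with library size, size factors, the authors' signal or the length offset. Zfp352, a zinc finger protein derived from a retrotransposed copy, had 0, 0.180 and 8.18 CPM at 4C and 48.9, 84.3 and 120.1 CPM at 2C (-5.06 ± 1.46, adjusted p 0.028). Zscan4c, of a family linked to telomere maintenance, had 0.0250, 2.04 and 17.1 CPM at 4C and 56.2, 77.8 and 272 CPM at 2C (-5.09 ± 1.51, adjusted p 0.0345). Rfpl4b, a RING finger protein, had 0, 0 and 4.80 CPM at 4C and 60, 110.2 and 247 CPM at 2C (-8.23 ± 1.77, adjusted p 0.00463). In all 3 the stages did not overlap, and neither did they for Zscan4f, Usp17la, Gm8300, Gm13078 and B020004J07Rik, which fell as well; Gm2022 and Gm5662 complete the 10. Zscan4d had 0, 1.68 and 13.7 CPM at 4C and 43.3, 57.4 and 199 CPM at 2C, with no overlap but an adjusted p of 0.0584. Tdpoz4 had 6.76 CPM at 4C and 0.609 CPM at 2C in the median cell (adjusted p 0.282). The Zscan4, Usp17l and Tdpoz families hold near-identical copies, so that the counts of single members are uncertain.

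All 10 downward calls of this list were lost when the 4 deep 4C cells were left out, a fit with 2 sums at 4C. There 3 genes rose and 0 fell, with a median of -2.45. With the 2C cell of conflicting labels left out, 3 rose and 2 fell, and with females alone 2 rose and 0 fell. Other settings kept or added downward calls: 9 with the length offset, 11 with DESeq2 size factors and 15 with library size alone. Limma called 24 lower on mean CPM and 27 lower on the authors' signal, which was not rescaled. The 4 genes that rose instead were Pramel7 and Pramel6, which are known from the naive pluripotent state, the nuclear body protein Sp110 and Ubtfl1, a relative of a ribosomal RNA transcription factor. Pramel7 had 579.6, 1029 and 2359 CPM at 4C and 26.2, 37.4 and 40.4 CPM at 2C (5.37 ± 0.80, adjusted p 1.18e-04). Sp110 had 2882, 3884 and 5770.0 CPM at 4C and 919.9, 1363 and 1777 CPM at 2C (1.93 ± 0.46, adjusted p 0.00877). Ubtfl1 rose by 5.19 ± 1.23 and Pramel6 by 1.80 ± 0.53, the last of these with overlap between cells. With both directions in the list, the summed level of its members was 5119 to 8602 CPM per cell at 4C and 4608 to 7267 CPM at 2C.

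**Figure D3:**
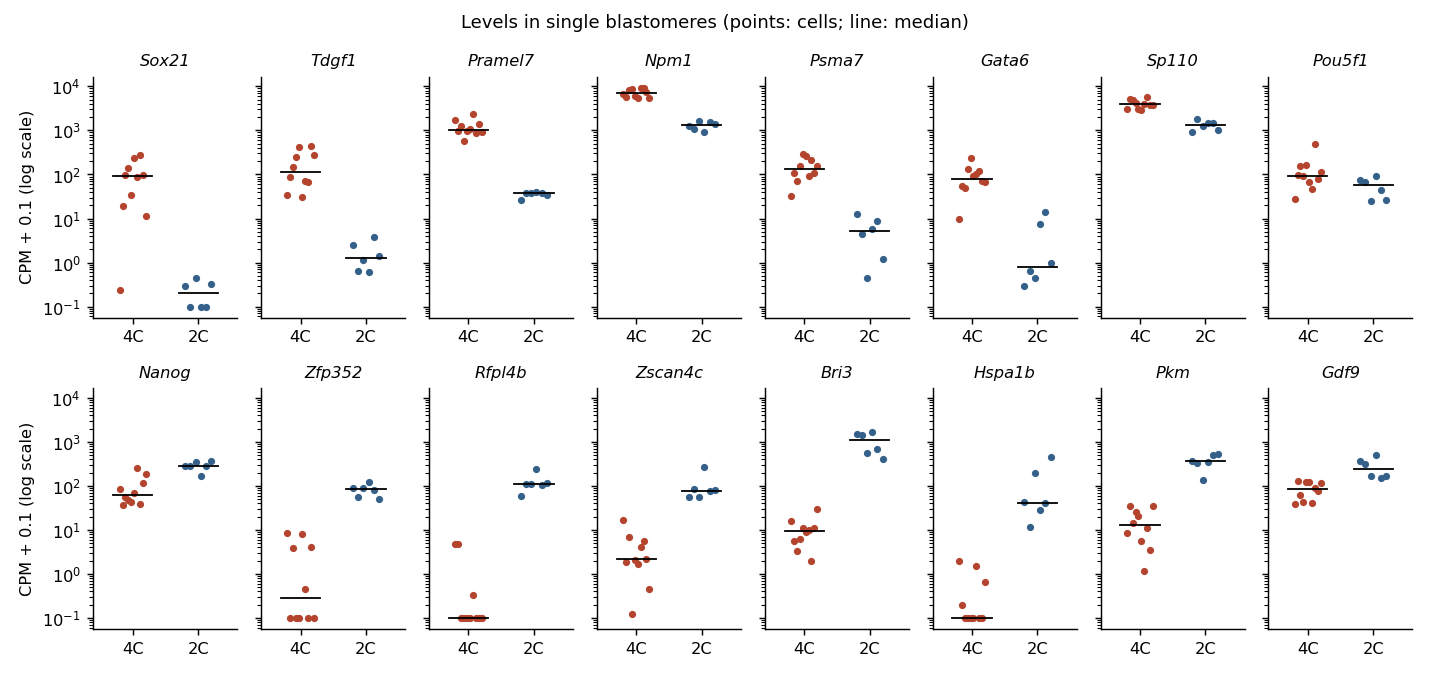
CPM plus 0.1 in each of the 10 cells of 4C (red) and 6 cells of 2C (blue) for 16 genes, on a log scale shared by all panels, with a line at the median cell. Tdgf1, Pramel7, Npm1, Psma7 and Sp110 are above every 2C cell in every 4C cell, and Zfp352, Rfpl4b, Zscan4c, Bri3, Hspa1b, Pkm and Gdf9 below, whereas Sox21, Gata6, Pou5f1 and Nanog overlap.

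The transcripts Dcdc2c, Gm7102 and 2310039L15Rik, with at least 10000 CPM each at 2C, were singled out after their values were seen. Together they took 0.28 to 3.72% of all reads of a cell at 4C (median 1.24%) and 3.19 to 10.57% at 2C (median 5.46%). They fell by 2.12 (Dcdc2c), 1.76 (Gm7102) and 2.69 (2310039L15Rik) on the log2 scale, with adjusted p of 0.0108, 0.0257 and 0.00203. The deep 4C cells had the lowest percentages, 0.28 to 0.94%, against 1.22 to 3.72% in the other 4C cells, and without them the adjusted p were 0.29, 0.49 and 0.12.

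Most oocyte genes of the next lists lay lower at 4C without passing the test. None of 8 zona and oocyte growth factor genes passed it, with 7 below 0 (median -1.0), and none of 9 genes of the subcortical maternal complex, a protein assembly under the egg's surface, with 7 below 0 (median -1.10). On the authors' signal, whose totals were lower at 4C and were not rescaled, limma called 6 and 5 of these lower. Gdf9, an oocyte growth factor, had 37.7, 83.0 and 128 CPM at 4C and 147, 243 and 496 CPM at 2C; the cells did not overlap, yet the log2 change of -1.46 ± 1.04 had an adjusted p of 0.381. Zp3, a protein of the egg coat, likewise had 32.8, 80.7 and 178 CPM at 4C and 281, 364 and 489 CPM at 2C (-1.97 ± 0.94, adjusted p 0.172). Of the complex, Nlrp5 had medians of 81.4 CPM at 4C and 134 CPM at 2C, Ooep 6.79 and 12.1 CPM, and Padi6 138 and 124 CPM, all with overlap. The fits of these genes use a spread estimated over all wild-type stages, from oocyte to 64 cells. A missed call is therefore no measure of how small a change was.

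Among 22 genes of maternal RNA storage and decay 1 passed the test, Lsm14b, a protein of stored messenger particles, with 0.114, 11.6 and 25.1 CPM at 4C and 71.7, 118 and 153 CPM at 2C (-3.32 ± 1.0, adjusted p 0.0352). Its call was lost without the deep 4C cells. Btg4, an adaptor for deadenylation of maternal RNA, had medians of 52 CPM at 4C and 127 CPM at 2C, and Zar1, an RNA-binding maternal factor, 0.641 and 27.8 CPM, both with overlap. Of 12 genes of meiotic arrest and the oocyte cell cycle, Aurka and Bub1b rose and none fell (median 0.59, but -0.45 with the length offset). Mos, the kinase that holds the egg in meiosis, had no reads in 7 of 10 cells at 4C and 2 of 6 at 2C. Dppa3, which protects maternal methylation marks, had 2232, 3441 and 6307 CPM at 4C and 1730.0, 2474 and 3004 CPM at 2C (0.81 ± 0.33, adjusted p 0.117, and 0.00314 with the length offset).

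Chromatin regulators gave single changes. Of 14 maternal chromatin genes, the histone chaperone gene Hira (2.95 ± 0.77) and the bromodomain gene Brwd1 (1.71 ± 0.55, adjusted p 0.0493) rose and none fell, with a median of -1.30. Among 13 genes of DNA methylation and demethylation, Tet1, which oxidises methylcytosine, had 139, 289 and 744 CPM at 4C and 7.40, 14.8 and 52.4 CPM at 2C (4.34 ± 0.73, adjusted p 4.00e-04), without overlap. The de novo methyltransferase gene Dnmt3b rose by 2.78 ± 0.71 (adjusted p 0.0138), a call that was lost with the length offset. Dnmt1, the maintenance enzyme, had 0.0634, 15 and 56 CPM at 4C and 65.1, 73 and 88.8 CPM at 2C; the cells did not overlap, but the adjusted p was 0.138, and 0.0296 with the length offset. Of 23 polycomb genes only Jarid2, an accessory subunit of the polycomb complex that methylates histone H3, passed the test (2.65 ± 0.49, adjusted p 0.00102).

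In the pluripotency list 3 of 24 genes rose and none fell (12.5% and 0%), with a median of 0.02. They were Tdgf1, Sall4, with 228, 351 and 501 CPM at 4C and 59.9, 111 and 191 CPM at 2C (2.11 ± 0.46, adjusted p 0.00385), and Dppa2, with 934, 1717 and 2276 CPM at 4C and 242, 507 and 559.9 CPM at 2C (2.39 ± 0.52, adjusted p 0.0042). The core factors did not pass: Pou5f1 had 27.8, 94.1 and 489 CPM at 4C and 24.7, 56.7 and 94.6 CPM at 2C (adjusted p 0.084). Nanog had 36.3, 61.9 and 251 CPM at 4C and 166, 282 and 366 CPM at 2C (adjusted p 0.252). Both overlapped between the stages, with the highest Pou5f1 cell at 4C and the highest Nanog cell at 2C.

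Of 10 genes reported to vary among 4-cell blastomeres, Sox21 alone passed the test. The transcription factor gene Tfap2c had medians of 103 CPM at 4C and 36.5 CPM at 2C (adjusted p 0.0669), and Prdm14, another such gene, 28.6 and 29.9 CPM. Reads of Carm1, a histone arginine methyltransferase gene, stayed at 0 to 1.37 CPM at 4C and 0 to 2.84 CPM at 2C. Among Sox21, Tfap2c and Prdm14, the ratio of the highest to the lowest 4C cell was widest in Sox21, whose lowest cell was near 0. Genes with a 4C cell at 0 CPM, such as Carm1, have no such ratio.

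Markers of the later lineages were mostly low. Of 17 primitive endoderm genes, Gata6 alone passed the test, with 9.73, 80.5 and 239.6 CPM at 4C and 0.200, 0.705 and 14 CPM at 2C (4.91 ± 0.77, adjusted p 1.78e-04); the lowest 4C cell lay within the 2C range. Of 20 trophectoderm genes the claudins Cldn4 and Cldn6 and the receptor Fgfr2 rose and the keratin Krt8 fell. Cldn6 had 16.4, 53.5 and 126 CPM at 4C and 0, 3.22 and 10.6 CPM at 2C (4.36 ± 1.25, adjusted p 0.0266), a call lost with the length offset. Krt8 had 0, 0.0570 and 0.481 CPM at 4C and 0, 5.66 and 32.9 CPM at 2C (-5.47 ± 1.37, adjusted p 0.0117), and without the deep 4C cells Krt8, Cldn4 and Fgfr2 lost their calls. Cdx2 had reads in 1 of 10 cells at 4C, at 1.69 CPM, and in 0 of 6 at 2C. The trophectoderm factor Klf5 stayed at 0 to 7.67 CPM at 4C and 0 to 11.8 CPM at 2C. Of 21 genes of compaction and polarity 4 rose and none fell (median 0.36, and -0.71 on the authors' signal): the junction protein F11r (3.23 ± 0.58, adjusted p 8.27e-04, without overlap), both cytoplasmic actins Actb and Actg1, and the myosin light chain Myl12b.

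On the counts, calls among cell cycle genes were upward only. Of 28 cyclins and mitotic regulators 5 rose and none fell (17.9% and 0%, against 6.61% and 2.92% of all genes), with a median of 0.79. Cyclin B1 (Ccnb1) had 2041, 2640.0 and 4099 CPM at 4C and 510.4, 1164 and 1820.0 CPM at 2C, without overlap (1.75 ± 0.42, adjusted p 0.00915). Cdc20, which activates the anaphase-promoting complex, rose by 3.04 ± 0.70, and Cdk2, Cdk4 and the replication factor Mcm5 rose as well. The median of the list was -0.18 on the authors' signal, above that of all genes, and there limma called 3 higher and 2 lower. Without the deep 4C cells 2 of the 5 passed the test. In the p53 list of 16 genes, Trp53 itself rose, with 12.8, 37.1 and 52.5 CPM at 4C and 0, 0.509 and 2.31 CPM at 2C (5.73 ± 1.24, adjusted p 0.00385), and its target Gadd45b fell (-6.45 ± 1.89, adjusted p 0.0309). Both calls were lost with the length offset.

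Sex-linked and imprinted lists held few calls. None of 9 genes of the X-inactivation centre passed the test over both sexes. Xist, the RNA that silences an X chromosome in females, had 23.7 to 238 CPM in 4C females and 0.711 to 3.80 CPM in 2C females, without overlap, against 0.792 and 2.18 CPM in the 4C males and 1.69 to 2.84 CPM in the 2C males. Over both sexes its log2 change was 5.10 ± 2.08 (adjusted p 0.113), and with females alone, a fit added after the data were seen, it was 5.95 and passed (edgeR adjusted p 0.0102; the alternatives ranged to 0.863). Rlim had 229.7 CPM at 4C and 349.8 CPM at 2C in the median cell (adjusted p 0.691). None of 8 Y-linked genes passed it either. Of 21 genes known as paternally expressed, Impact (5.51 ± 1.27, adjusted p 0.00642) and Gab1 (3.34 ± 1.03, adjusted p 0.0403) rose, and none of 18 known as maternally expressed passed the test. Markers of cumulus and granulosa cells, which surround the oocyte and could cling to it, summed to 5.32 to 82.1 CPM per cell at 4C and 86.0 to 292 CPM at 2C, and none of the 10 tested passed.

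Fold changes went along with covered length. In genes ordered by the ratio of their covered length at 4C to that at 2C and cut into 4 bins of 2328 genes, the median log2 ratio of length was 0.02, 0.37, 0.77 and 1.38. The median log2 change in level was -1.05, -0.01, 0.35 and 0.79 in these bins. Upward calls numbered 84, 218, 284 and 364, and downward calls 217, 109, 57 and 30. The covered length is taken from the same counts as the fold change, so the 2 measures are not independent, and the part of one in the other was not tested. With the covered length as an offset in the fit the medians were -0.28, 0.35, 0.30 and -0.00, and 1165 genes were higher and 469 lower of 16588 tested. Of these, 857 higher and 333 lower genes were also called without the offset. Proteasome genes kept a median of 1.39, translation initiation 1.48, chaperones 1.33 and ribosome biogenesis 0.97 under the offset.

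**Figure D4:**
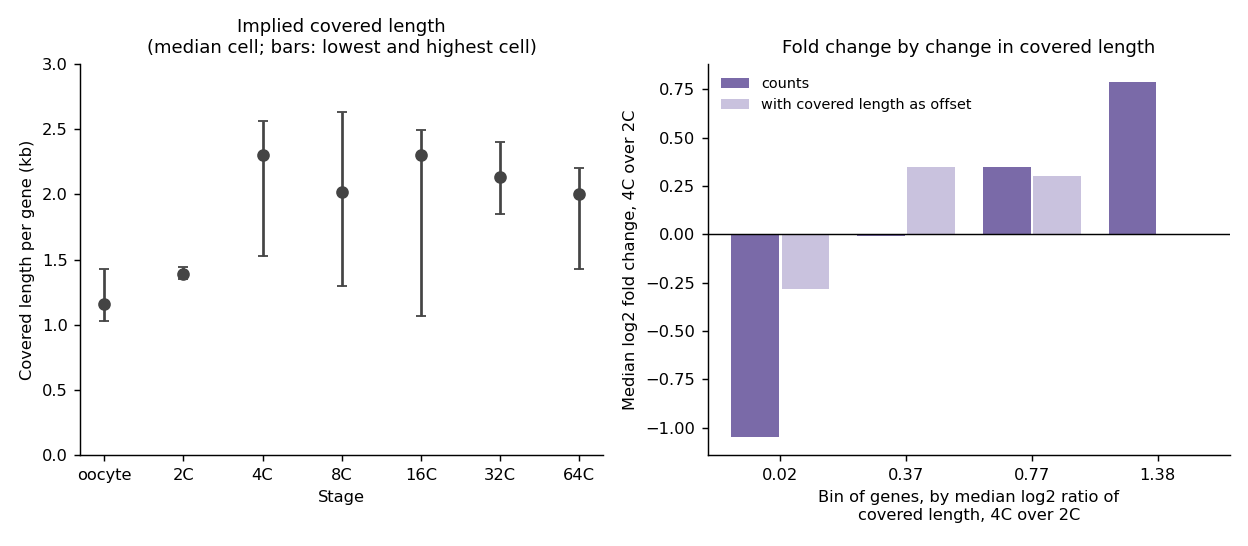
Left, covered length per gene in kilobases by stage, as the median cell with bars to the lowest and highest cell: 2.30 at 4C and 1.39 at 2C, with oocytes at 1.16 and later stages at 2.00 to 2.30. Right, median log2 fold change of 4C over 2C by bin of the change in covered length, from the counts (dark) and with covered length as an offset (light).

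The paternal share of allele-assigned reads addressed how much of the RNA had been made by the embryo. The table does not give how many reads stand behind a share, so shares carry no interval. The oocytes, which hold no paternal allele, give the background: their mean shares were 0.0055 to 0.0241. In the 2470 oocyte-stored autosomal genes, the mean paternal share per cell was 0.311 to 0.419 at 4C and 0.179 to 0.36 at 2C. Averaged over groups it was 0.378 ± 0.033 at 4C (SD, n = 3 groups) and 0.266 ± 0.066 at 2C (SD, n = 4), a difference of 0.113. The exact two-sided permutation test gave p = 0.0571, the smallest that 3 against 4 groups allow, so the design could not pass 0.05. All 3 groups of 4C lay above all 4 of 2C, while single cells overlapped.

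The crosses differed at both stages and were compared within themselves. In BC embryos the stored-gene share was 0.353 (females) and 0.366 (males) at 4C, against 0.252 and 0.179 at 2C. In CB embryos it was 0.415 in 4C females, against 0.303 in females and 0.328 in males at 2C. The stage difference thus had the same sign within each cross. Without the 4 deep 4C cells the difference was 0.103, with p = 0.267 by the same exact test, where 2 against 4 groups allow 0.133. The groups were then no longer apart. The BC females of 4C, at 0.323, lay below the CB males of 2C (0.328) but above both BC groups of 2C.

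In the 4720 genes not found in oocytes the shares were close to even at both stages: 0.504 ± 0.016 at 4C (SD, n = 3) and 0.499 ± 0.032 at 2C (SD, n = 4), a difference of 0.005 (exact two-sided permutation p = 0.971). Single cells ranged from 0.479 to 0.534 at 4C and from 0.452 to 0.541 at 2C. Between these extremes the paternal share fell with the level of the gene in oocytes. Genes under 0.1 CPM in oocytes averaged 0.51 at 4C and 0.523 at 2C, genes of 10 to 100 CPM 0.424 and 0.33, and genes of 1000 CPM or more 0.26 and 0.168. The gap between 4C and 2C was widest, at 100 to 1000 CPM, with 0.378 ± 0.035 at 4C and 0.26 ± 0.072 at 2C. Over all autosomal genes, 13.3 to 27.4% of the measured genes of a cell had a share of at most 0.1 at 4C and 23.5 to 39.6% at 2C.

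**Figure D5:**
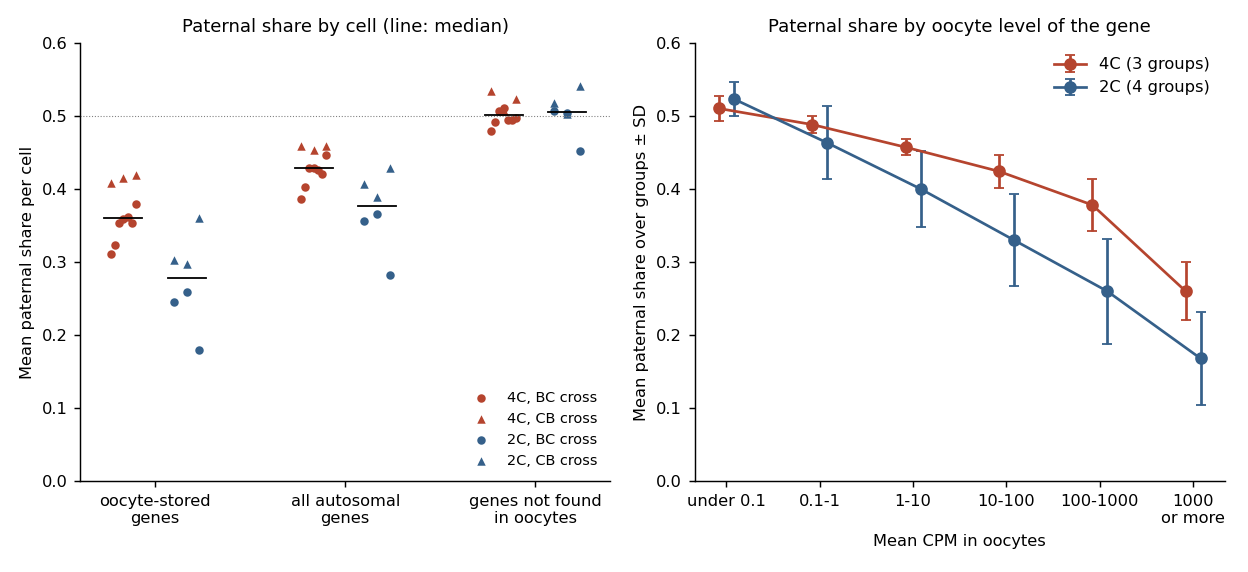
Left, mean paternal share in each cell for oocyte-stored, all autosomal, and genes not found in oocytes, 4C (red) left of 2C (blue), with circles for BC, triangles for CB and a line at the median cell. Right, mean ± SD over groups by the gene's mean CPM in oocytes: both stages start near 0.5 and fall to 0.26 at 4C and 0.168 at 2C.

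Gene by gene, limma found no share that differed at an adjusted p under 0.05 among 4329 genes (0%; smallest adjusted p 0.107). At an unadjusted p under 0.05, 326 genes had a higher paternal share at 4C (7.53%) and 51 a lower one (1.18%), and 63.8% of all differences were above 0, with a median of 0.049. Among the 10 upward genes with the smallest p, most had shares near 0 at 2C. Gtf2ird1, a transcription factor gene, averaged 0.917 at 4C and 0.123 at 2C, and Ap3m1, a subunit of the adaptor complex AP-3, 0.585 and 0. Mipep, a mitochondrial peptidase gene, averaged 0.620 at 4C and 0 at 2C, Actr10, of the dynactin complex, 0.521 and 0.0758, and Nedd1, a centrosome gene, 0.503 and 0.0503. Vrk3, Pecam1, Btf3l4, Enoph1 and Tgfbrap1 were the other upward genes. In the other direction, Rnf225 averaged 0.224 at 4C and 1.0 at 2C, the potassium channel gene Kcnk5 0.501 and 0.891, and the hexokinase gene Hk1 0.424 and 1.0, followed by Nipal1, Tcf12, Sos1, Mslnl, Luzp1, Etv5 and Tbc1d9b. With 0 adjusted calls these are the ends of a ranking.

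A set of genes was read almost only from the maternal allele at both stages. Of 3531 autosomal genes measured in all 7 groups, 103 had a share of at most 0.1 in every 4C group and 164 in every 2C group, and 69 of them in all groups of both stages. Of the 69, 60 were oocyte-stored, among them Zp2 of the egg coat, Btg4, the oocyte linker histone H1foo, Nlrp2, Nlrp9c, Oosp1 and Tcl1b1, while Zp1 and Sebox were among the 9 others. Btg4 averaged 0.010 at 4C and 0.014 at 2C, and Zp2 0.005 and 0.000. The oocyte genes Gdf9 and Nlrp5 also had mean shares of 0.008 and 0.002 at 4C, against 0.077 and 0.027 at 2C. The 164 genes that were maternal in every 2C group had a median share of 0.086 at 4C, and 10 of them lay between 0.4 and 0.6 there.

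The alleles of some genes that rose could be read at 4C. Npm1, Hspa8 and Psma7 were read from both alleles: Npm1 had shares of 0.472 to 0.556, Hspa8 0.417 to 0.630 and Psma7 0.274 to 0.781 over the 10 cells at 4C, and at 2C Psma7 had no measured cell, Hspa8 1 and Npm1 3. Cd84 and Cldn6 followed the strain. For Cd84 the paternal share was 0.984 to 1.0 in the 7 BC cells and 0 to 0.007 in the 3 CB cells at 4C, so that its reads were assigned to the Cast allele in both crosses. For Cldn6 it was 0.727 to 1.0 in BC cells and 0 to 0.113 in CB cells at 4C, again mostly the Cast allele. Sox21 was read from the paternal allele in both crosses, with 0.981 to 1.0 in the 8 measured cells of 3 groups at 4C, and no 2C cell was measured.

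Few genes were read almost only from the father. At 4C 4439 genes had 2 or more measured cells in each group. Of these, 68 had a share of at most 0.1 in all 3 groups and 11 a share of at least 0.9, and none of the 11 was oocyte-stored. Among the 3531 genes measured in all 7 groups, 5 had at least 0.9 in every 4C group and 3 in every 2C group. Only Prkcz had it in all groups of both stages, with means of 0.996 at 4C and 0.984 at 2C. Of the 11 mainly paternal genes, 5 stand on the list of paternally expressed imprinted genes used here: Gab1, Impact, Jade1, Mcts2 and Zrsr1. That list does not hold every gene reported as imprinted. Gab1, a docking protein of growth factor receptors, had shares of 0.993 to 1.0 in 9 cells at 4C and 0.973 to 1.0 in 3 cells at 2C. Impact had 0.848 to 1.0 in 10 cells at 4C and no measured cell at 2C, where its median level was 0.498 CPM, against 89.6 CPM at 4C.

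The other 6, which are not on that list, were Etv6, Ankmy2, Bzw2, Fkbp6, Steap3 and 2400006E01Rik. Etv6, a transcription factor gene of the Ets family, had 0.976 to 1.0 in 10 cells at 4C and 0.784 to 1.0 in 3 cells at 2C. Bzw2 had 0.890 to 1.0 in 10 cells at 4C and 0.461 to 1.0 in 6 cells at 2C, and Ankmy2 0.846 to 1.0 in 10 cells and 0.455 to 1.0 in 5 cells, so that both were less evenly paternal at 2C. Fkbp6 had 0.923 to 1.0 in 10 cells at 4C and 0 to 1.0 in 6 cells at 2C. Steap3, a metalloreductase gene, and 2400006E01Rik had at least 0.995 in every measured cell of both stages, 6 and 9 cells at 4C and 3 and 4 at 2C.

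Imprinted genes measured in at least 2 groups of each stage differed in their shares. Mcts2, Jade1, Gab1 and Zrsr1 were paternal at both stages, with group means of 0.967 to 0.998 at 4C and 0.960 to 1.0 at 2C. Ube3a, known as maternally expressed in the brain, had 0 to 0.125 in 4 cells at 4C and 0 to 0.3 in 3 cells at 2C. Blcap, on the list of maternally expressed genes, averaged 0.237 at 4C, with 0 to 0.636 over 9 cells, and 0.006 at 2C, with 0 to 0.036 over 4 cells.

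Trappc9, on the same list, followed the strain. Its paternal share was 0.006 to 0.047 in BC cells and 0.922 to 0.992 in CB cells at 4C, and 0.07 to 0.093 in BC and 0.831 to 0.939 in CB cells at 2C, so that its reads were mostly assigned to the B6 allele in both crosses. Usp29, known as paternally expressed, had 0.725 to 0.85 in BC cells and 0.024 to 0.336 in CB cells at 4C, which do not overlap, and 0.165 to 0.75 in BC and 0.357 to 0.507 in CB cells at 2C, which do. Inpp5f, Grb10 and Tssc4 had intermediate mean shares: Inpp5f averaged 0.351 at 4C and 0.431 at 2C, Grb10 0.635 and 0.455, and Tssc4 0.575 and 0.340. Kcnq1ot1, a long noncoding RNA of the paternal allele, averaged 0.621 at 4C and 0.050 at 2C, where 2 cells were measured. Cells of 1 group spread widely here: Kcnq1ot1 had 0 to 0.824 over the 5 BC females of 4C.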

How the data were processed

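Deposited by the authors were unnormalized counts of reads for 24499 genes, a fraction per gene for 15253 genes, read here as the paternal share, and a length-normalized signal for 20711 genes. TopHat2 2.1.0, SAMtools, HTSeq 0.6.1 and build mm10 are named in the submitters' processing notes. Whether counting used the strand is not given in the sources used here. Each value of the fraction was taken as a paternal share because X-linked genes lie near 0 in males of both crosses.

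Counts were summed by stage, cross and sex into 25 wild-type sums and fitted together in edgeR 4.0.16 (R 4.3.3; filterByExpr, trimmed mean of M-values, quasi-likelihood test, Benjamini-Hochberg adjustment), with stage as the only term. DESeq2 1.42.0 and limma 3.58.1 served as alternatives, on log2(value + 1) for limma. Shares used genes with at least 10 reads in a cell. Covered length is the count over the signal per gene and cell, over genes with at least 200 and under 1000 reads. Coordinates come from the RefSeq annotation of GRCm38, matched for 24383 genes. The reads were amplified and carry no molecular identifiers, so they are not independent molecules. The scripts were tested on simulated data.

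Named were the 15 genes with the largest log2 fold change in each direction, among called genes whose sums do not overlap and that average at least 50 CPM at the higher stage; up to 4 called members per list and its usual markers; and for shares the 10 smallest p in each direction. The members and lists were chosen with earlier results of these data known. Further called members are given for their list's count and were named after their values were seen.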

Additional observations from a re-analysis of the deposited data

Results flagged for a closer look

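Among 122 groups of values examined, 13 of the 2C sums stood far from the other 3 of their gene. The rule flags about 1 group in 20 where values are normally distributed. CPM of sums need not be, so the number flagged is not to be read as an excess over chance. The 3 sums of a gene at 4C were too few for the rule, so none of them could be flagged. The BC male, a single cell, was highest for Zscan4c (272 CPM), Zscan4d (198.7 CPM), Rfpl4b (247 CPM), Brwd1 (102.4 CPM) and Lars (4.561 CPM). The CB female, also a single cell and the one with conflicting labels, was highest for Pdha1 (141.8 CPM) and Bccip (1.762 CPM). The BC females were highest for Eftud2 (17.5 CPM), Impact (12.23 CPM), Mrps31 (4.141 CPM) and Tdpoz4 (3.482 CPM), and the CB males for Cldn4 (3.995 CPM) and Prcc (2.397 CPM). Leaving out the BC male sum, the calls of Zscan4c, Prcc, Pdha1 and Cldn4 were lost, among others.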

How the results depend on the processing

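Counts of changed genes moved with the test and the samples. Genes higher at 4C numbered 612 on the authors' signal and 478 in females alone, against 1098. Genes lower at 4C numbered 1564 with DESeq2, 1711 with limma on mean log2(CPM + 1), 2977 on the authors' signal, 1158 with the 2C and 4C sums alone and 1007 with cross and sex added, against 486. They numbered 275 with the strain label followed for 1 cell, 279 with that cell left out, 131 without the deep 4C cells and 117 in females alone. Leaving out each sum in turn gave 658 to 974 higher and 148 to 356 lower; 658 and 148 came without the BC females of 4C, and the lower count was also more than 1.5 times smaller without any other sum except the CB males of 2C. The paternal share difference of genes not found in oocytes turned to -0.0003 with at least 20 reads and -0.0192 with an oocyte threshold of 0.1 CPM, and spanned -0.0105 to 0.0125 over single groups left out. Of the named genes, changes that were never called turned sign in Rlim (0.064 without the conflicting cell, 0.14 without the deep cells, 0.16 with the length offset, -0.56 to 0.064 over sums left out), Padi6 (-1.71 on the authors' signal, -0.59 with the offset), Klf5 (1.04 in females, -1.65 to 0.52 over sums left out) and Ooep (0.27 in females). Ndufa10, called higher, turned to -0.21 on the authors' signal. The cause of these changes was not tested. Of 93 named calls, 3 were lost with DESeq2, 10 with the length offset, 18 without the deep cells, 21 on the authors' signal and 24 in females alone. No paired analysis was possible because the 4C and 2C groups of a cross share no replicate number in their titles.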
